A study of Mus musculus with 16 samples.

Results

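Trimethylation of histone H3 at lysine 27 (H3K27me3) was mapped by ChIP-seq in 4 of the 16 libraries of this mouse series: 2 libraries titled Ezh2KO (numbers 10 and 9) and 2 titled Ezh2ff (numbers 33 and 7), chosen by these titles. The Ezh2-deleted cells came from mice labelled Ezh2 fl/fl.CD4Cre, in which the Cd4 promoter drives the Cre recombinase that removes the floxed Ezh2 gene in T cells, and are labelled Ezh2-/-. The control cells came from mice labelled Ezh2 fl/fl, which carry the same floxed alleles without a listed Cre, and are labelled wild type. All 4 were naive CD4+ T cells, flow sorted and cultured as Th0 cells, that is, activated without cytokines that direct a T helper fate, with 5 ug/ml plate-bound anti-CD3, 1 ug/ml anti-CD28 and 50 U/ml of IL-2, and taken on day 4. Each ChIP used 10 ug of a polyclonal anti-H3K27me3 antibody. The design text calls the 2 libraries of a genotype biological replicates; age, sex and pooling of the mice are not given in the sources used here. Neither an input nor a spike-in library was used. Beside them stand 6 Th0 RNA libraries, 3 of each genotype, whose numbers differ from those of the ChIP libraries. The comparison asks how the mark over genes differs once its main enzyme has been removed.

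Ezh2 is the catalytic subunit of Polycomb repressive complex 2 (PRC2), which also needs Eed and Suz12 and writes mono-, di- and trimethylation of H3 lysine 27. The trimethylated form is bound by the Cbx proteins of Polycomb repressive complex 1 (PRC1) and covers silent genes, above all those of developmental transcription factors. Ezh1, a relative with weaker activity, can occupy the same place in PRC2. In T helper cells the mark lies over genes of the fates a cell has not taken.

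The files give reads per gene interval, the whole stretch of a gene in the mm10 build. Of 22269 intervals, 20376 had enough reads for the test, 600 had reads below its filter and 1293 had no read in any library. The 2 Ezh2-deleted libraries (10, then 9) held 15103496 and 11133166 reads in intervals, and the 2 controls (33, then 7) held 11124172 and 12433039; this order is kept for every group of 4 values. CPM are read counts brought to the same total over all intervals in every library. Density is CPM per kb of interval not shared with another, and where it is given "over expressed genes" it is divided by the median density, in the same library, of the intervals of genes in the upper 25% of RNA per kb in control Th0 cells. This last value does not depend on library totals. It does depend on how strongly each ChIP enriched the mark over background. Without an input or a spike-in library, weaker enrichment and less mark cannot be told apart.

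Before the results, 2 features of the libraries bear on their labels. RNA of Ezh2 averaged 157 ± 11.1 CPM in Ezh2-deleted cells and 305 ± 8.56 CPM in controls (SD, n = 3 each; adjusted p = 4.56e-08, edgeR's quasi-likelihood test with Benjamini-Hochberg adjustment); reads were summed over the whole gene, in which deleted and undeleted exons are counted together, and the ChIP libraries carry no such check. In RNA of whole cultures, fewer cells with a transcript and less RNA per cell cannot be told apart. The Cd4 interval (chr6:124864692-124888221) had 62.4 and 60.3 CPM in the Ezh2-deleted libraries, against 34.3 CPM in control 33 and 8.45 CPM in control 7. Over expressed genes this was 2.98 and 3.01 in the Ezh2-deleted libraries, against 2.88 in control 33 and 1.01 in control 7, so control 33 lay with the Ezh2-deleted libraries at this interval. The neighbouring Lag3 interval stood at 0.903 and 1.27 in the Ezh2-deleted libraries, against 0.919 and 0.988 in the controls. Among 11796 autosomal intervals with a mean of at least 80 reads, Cd4 had the largest ratio of control 33 to control 7 (1.51 on the log2 scale, against a median of -0.42); it was singled out after its values were seen. As background, Cd4-Cre transgenes carry regulatory DNA of Cd4. Whether the library labelled control 33 holds such a transgene was not tested, and counts without either control are given with the results. The median density of X intervals over that of autosomal intervals also differed within both genotypes, at 0.958 and 0.788 in the Ezh2-deleted libraries, against 0.525 and 1.35 in the controls.

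In both Ezh2-deleted libraries the measured mark had little of the contrast between genes seen in the controls. The ratio of the 99th to the 1st percentile of density over 15908 intervals of at least 1 kb that overlap no other was 2.93 and 4.10 in the Ezh2-deleted libraries, against 23.1 and 42.6 in the controls. The SD of log2 density was 0.345 and 0.414 in the Ezh2-deleted libraries, against 0.952 and 1.18 in the controls. Intervals at more than 2 times the density of expressed genes numbered 127 and 458 in the Ezh2-deleted libraries, against 7129 and 9606 in the controls. Above 4 times there were 12 and 20 in the Ezh2-deleted libraries, against 1906 and 4550 in the controls. Both Ezh2-deleted libraries lay below both controls in each of these 4 measures, and with 2 libraries a side the smallest two-sided exact permutation p is 0.33. The controls differed from each other too, control 7 having the wider range, and log2 densities of the intervals correlated at r = 0.676 within the Ezh2-deleted pair and 0.898 within the control pair (a description across intervals, which are not replicates).

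**Figure D1:**
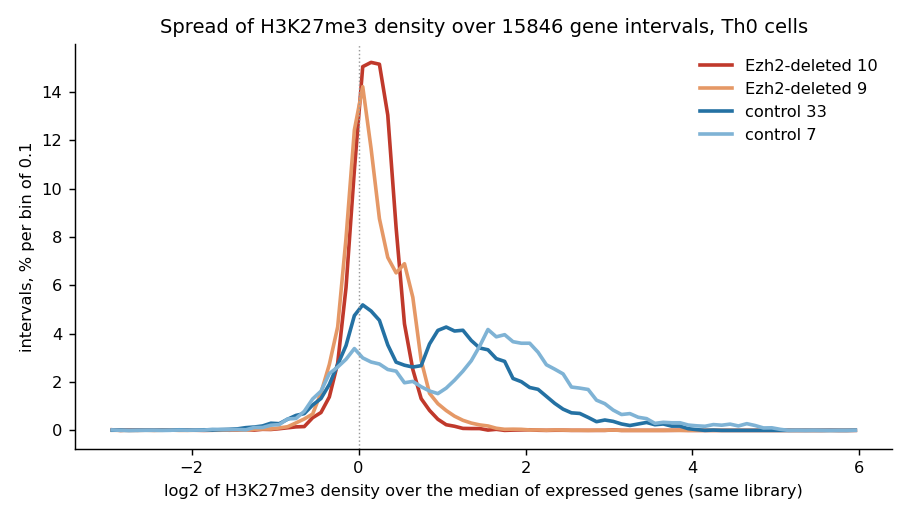
Share of 15846 tested, non-overlapping intervals of at least 1 kb (y axis, percent per bin of 0.1) by log2 H3K27me3 density over the median of expressed genes of the same library (x axis; values beyond the ends are drawn at the ends); each line is 1 library. Both Ezh2-deleted libraries form a single narrow peak near 0, while both control libraries have a second, wide peak of intervals above expressed genes.

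A library total holds the reads of all intervals together, so a share lost by one interval is gained by others, and the number of intervals called lower depended on the scale. Scaled by library totals, edgeR's quasi-likelihood test (two-sided, Benjamini-Hochberg adjusted p below 0.05) called 4205 intervals lower in Ezh2-deleted cells (20.6% of 20376 tested) and 6570 higher (32.2%). Scaled by reads in the intervals of expressed genes, it called 8674 lower (42.6%) and 589 higher (2.89%). The median log2 change of all tested intervals was 0.21 on the first scale and -0.53 on the second, and changes are read against these medians. Of the 4205 intervals called lower on library totals, 4195 were lower on the second scale and none was called higher; of the 6570 called higher, 589 were called higher on the second scale and none was called lower. Falls on library totals were thus called on both scales with 10 exceptions, whereas 5981 of the rises were called on library totals alone.

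On library totals 1997 intervals fell at least 2-fold and 330 at least 4-fold, while 3433 rose at least 2-fold and 37 at least 4-fold. All 4205 falls and all 6570 rises had no overlap in CPM between genotypes, against 31.6% of all tested intervals with both Ezh2-deleted libraries below both controls and 48.1% with both above. Leaving out control 33 gave 5091 falls and 7557 rises, and leaving out control 7 gave 4349 and 6292. With 1 Ezh2-deleted library left out, the spread came from the control pair alone and edgeR called 0 intervals in either direction; at an unadjusted p below 0.05 it then gave 3110 to 3531 falls and 3692 to 4291 rises, and DESeq2 called 1007 to 1050 falls and 25 to 109 rises at an adjusted p below 0.05. On the scale of expressed genes the same omissions gave 5387 to 5633 falls and 32 to 37 rises, omission of control 33 gave 10991 falls and 2310 rises, and omission of control 7 gave 8242 falls and 690 rises. In these last fits 237 and 19 of the intervals called higher on library totals were called lower.

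The loss was graded by how much mark the controls carried. The 10% of intervals densest in control 33 (1590 intervals) had a median density over expressed genes of 1.35 and 1.45 in the Ezh2-deleted libraries, against 9.25 in control 7, the control not used to choose them. Their median log2 ratio to control 7, on library totals, was -1.45 in Ezh2-deleted 10 and -1.47 in Ezh2-deleted 9, with 1567 and 1558 of the 1590 intervals lower. The densest 1% (159 intervals) stood at 1.57 and 2.31 in the Ezh2-deleted libraries, against 25.4 in control 7, a median log2 ratio of -2.71 and -2.14. Chosen in control 7 and measured in control 33, the densest 10% gave -1.28 in both Ezh2-deleted libraries.

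Across 10 equal groups of intervals ordered by density in control 33, the median of the top group over that of the bottom group was 1.41 and 1.61 in the Ezh2-deleted libraries, against 10.4 in control 7. Between these ends the Ezh2-deleted libraries did not climb evenly: the sixth group stood at 1.21 and 1.36, the eighth at 1.23 and 1.20 and the tenth at 1.35 and 1.45. The order of control densities was thus still visible in the Ezh2-deleted libraries, at a small part of its height. Genes in the lowest of 10 groups of RNA per kb in control Th0 cells had a median density over expressed genes of 1.25 and 1.27 in the Ezh2-deleted libraries, against 2.96 and 4.44 in the controls. Genes in the highest group had 0.978 and 1.03 in the Ezh2-deleted libraries, against 0.935 and 0.934 in the controls. The 4820 intervals of genes without any RNA read in control Th0 cells, which are not in these groups, had 1.28 and 1.4 in the Ezh2-deleted libraries, against 2.53 and 3.87 in the controls. The gap between genes with little or no RNA and the most active genes was thus narrower in both Ezh2-deleted libraries than in both controls.

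**Figure D2:**
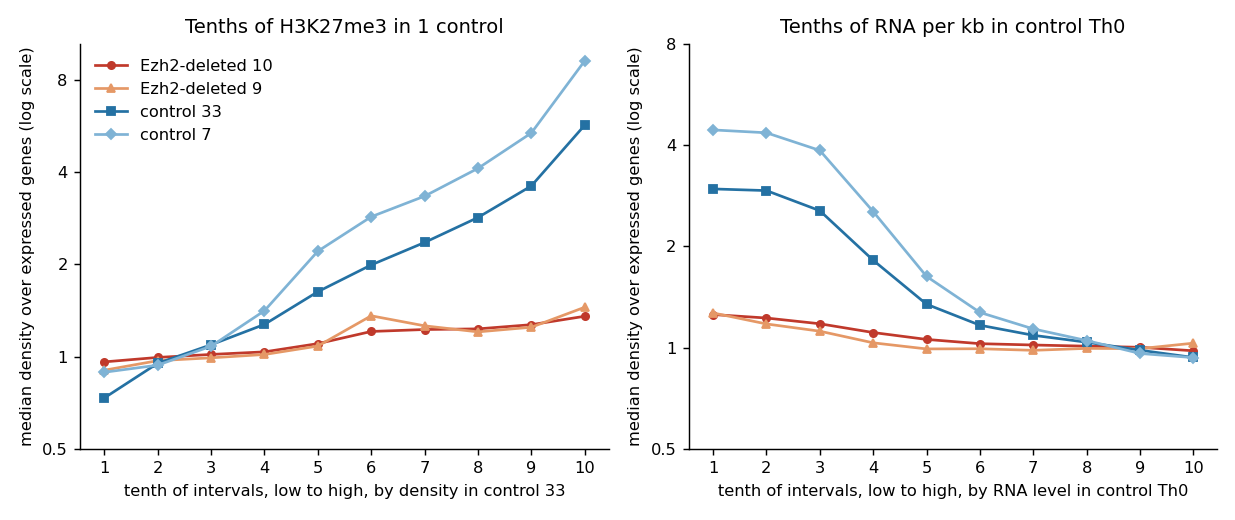
Median H3K27me3 density over expressed genes (y axis, log scale) in 10 equal groups of intervals, low to high, ordered by density in control 33 (left) and by RNA per kb in control Th0 cells among genes with an RNA read (right); each line is 1 library. The Ezh2-deleted libraries stay between 0.903 and 1.45 throughout, while control 7 reaches 9.24 in the densest group of the left panel. Control 33 chose the order of the left panel, so its own line there is a description.

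The 4 Hox clusters, arrays of homeobox genes that give body segments their identity and are classic Polycomb territory, lost the mark as a whole. Of 40 listed Hox and Evx genes in the files, 33 were tested and 33 fell, with a median log2 change of -2.15 and a range of -2.51 to -1.16, against a median of 0.21 over all intervals; the other 7 had no reads because neighbouring intervals overlap them. Median density over expressed genes was 1.61 and 2.20 in the Ezh2-deleted libraries, against 13.0 and 23.7 in the controls. Hoxb6 (chr11:96292476-96301568) had 11.4 and 16.0 CPM in the Ezh2-deleted libraries, against 67.3 and 80.9 CPM in the controls (log2 change -2.44, SE 0.23, adjusted p = 5.63e-05, edgeR). Hoxa9 (chr6:52223097-52231089) had 11.3 and 24.0 CPM in the Ezh2-deleted libraries, against 61.8 and 77.9 CPM in the controls (log2 change -1.99, SE 0.35, adjusted p = 0.00404). The groups did not overlap at either gene, and at Hoxa9 Ezh2-deleted 9 kept more than 2 times the CPM of Ezh2-deleted 10.

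Along the clusters the mark was uneven in the controls. Hoxa3 was the lowest of the tested Hoxa genes, with 4.46 and 6.15 over expressed genes in the controls, and Hoxb3 and Hoxb4 were the lowest in the Hoxb cluster. Hoxa3 fell least (11.1 and 8.26 CPM in the Ezh2-deleted libraries, against 22.1 and 21.4 CPM in the controls; log2 change -1.16, SE 0.25, adjusted p = 0.00351). RNA of Hox genes was nearly absent in both genotypes. Hoxb4, 1 of the 2 Hox genes with enough RNA for a test, had 2.15 ± 0.09 CPM in Ezh2-deleted cells and 0.374 ± 0.03 CPM in controls (SD, n = 3 each; log2 change 2.47, SE 0.24, adjusted p = 8.58e-06), beside an interval at 3.44 and 4.13 CPM in the Ezh2-deleted libraries, against 16.2 and 22.5 CPM in the controls.

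**Figure D3:**
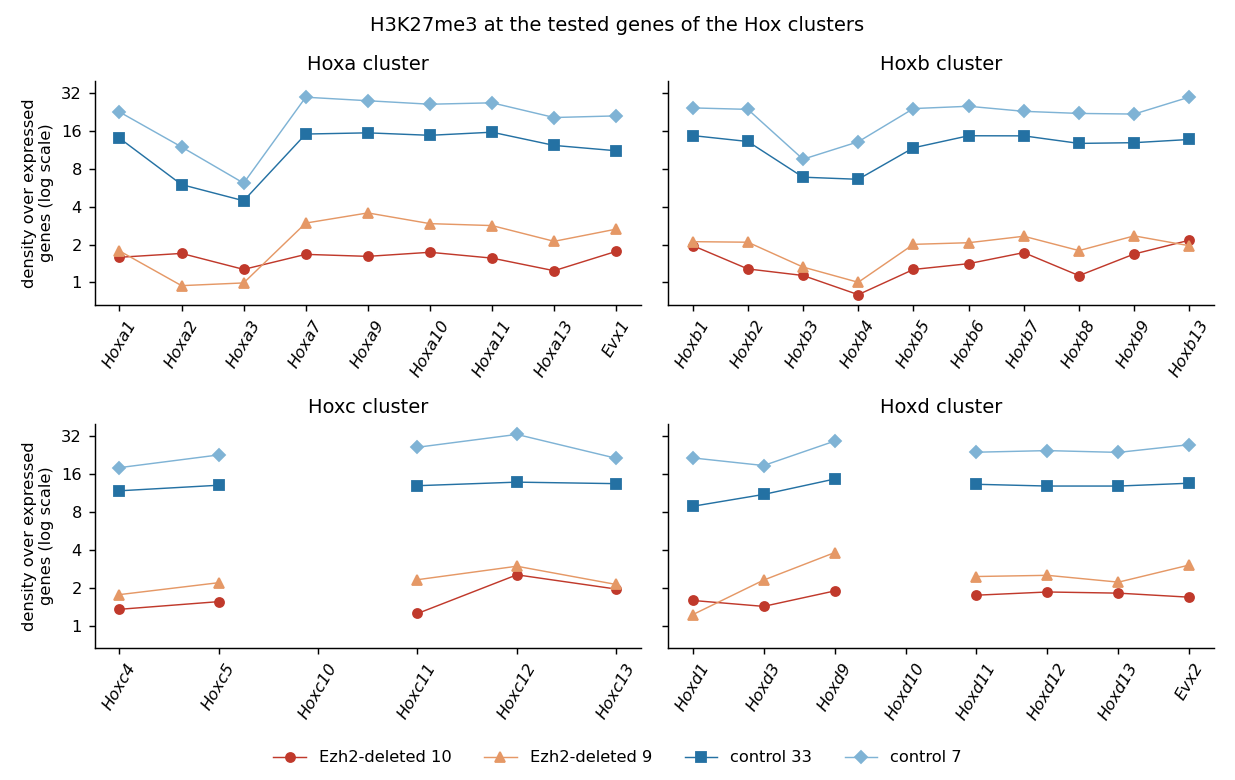
H3K27me3 density over expressed genes (y axis, log scale) at each tested gene of the 4 Hox clusters, by paralogue number with Evx genes last; each symbol is 1 library, and Hoxc10 and Hoxd10 have too little unshared length for a density. At every gene shown both Ezh2-deleted libraries lie below both controls.

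Other developmental transcription factors followed. Of 120 tested genes of homeobox, Sox, Fox, Gata, T-box and bHLH families, 114 fell (20.6% of all intervals did), none rose, and the median log2 change was -2.01. Their median density over expressed genes was 1.42 and 1.99 in the Ezh2-deleted libraries, against 10.2 and 19.7 in the controls. Pax6, a regulator of eye and brain development, had 33.3 and 47.9 CPM in the Ezh2-deleted libraries, against 174.2 and 207 CPM in the controls (log2 change -2.24, SE 0.19, adjusted p = 5.32e-05). Gata4, a cardiac and endodermal factor, had 105 and 114 CPM in the Ezh2-deleted libraries, against 324 and 385 CPM in the controls (log2 change -1.69, SE 0.13, adjusted p = 4.39e-05). Of 10 members with enough RNA for a test, Lhx2 and Foxf2 rose in RNA and none fell, against 25.4% and 27.1% of all genes tested. Lhx2, a LIM homeobox factor, had 43.5 and 53.7 CPM over its interval in the Ezh2-deleted libraries, against 191 and 240 CPM in the controls. Its RNA averaged 6.18 ± 3.42 CPM in Ezh2-deleted cells and 1.12 ± 0.14 CPM in controls (SD, n = 3 each; log2 change 2.41, SE 0.44, adjusted p = 0.00489).

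Among secreted signals, 39 of 52 tested Wnt, Fgf, Bmp, Gdf and Hedgehog ligand genes fell (75%, against 20.6% of all intervals) and 1, Fgf14, rose (log2 change 0.29, adjusted p = 0.0307, which was not called on the scale of expressed genes). Wnt1, a ligand of midbrain and neural crest development, had 4.57 and 5.93 CPM in the Ezh2-deleted libraries, against 33.5 and 44.3 CPM in the controls (log2 change -2.90, SE 0.26, adjusted p = 5.32e-05). Wnt1 was both among the 10 densest intervals of the controls and among the 10 largest falls. Hes1 and Hes5, repressors downstream of Notch, had log2 changes of -2.75 and -3.60, and Id1, an inhibitor of bHLH factors, -3.21. Hes5 had 0.993 and 0.629 CPM in the Ezh2-deleted libraries, against 6.20 and 14.1 CPM in the controls, the controls differing more than 2-fold. In the shortest of 4 equal length groups of intervals (1 to 6.89 kb) 217 fell at least 4-fold, against 49, 4 and 0 in the longer groups.

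Promoters of 4 genes show what lies at the starts of such intervals. As background, Polycomb-bound promoters in mammals are often rich in CG dinucleotides (CpG islands), as are those of housekeeping genes. The sequences are RefSeq's for GRCm38.p6, from 250 bases before to 50 bases after the transcription start, on the gene's strand, with every CG in capitals. Wnt1 and Dlx2, a forebrain homeobox gene, are 2 of the densest control intervals with many CGs, Galr2, a galanin receptor gene, is one with few, and Phb2, a mitochondrial prohibitin gene, is the largest called rise among intervals without overlap that had a mean of at least 50 reads per library in one genotype, a minimum it met in Ezh2-deleted cells alone. Over all intervals the largest called rise was a log2 change of 2.95. They hold 26, 29, 4 and 29 CGs, and over 32851 promoters of this length in the table the median was 7, with 94.6% holding at least 1 and 43.5% at least 10; CG reads the same on both strands.
Wnt1 (chr15:98789607-98789906, + strand): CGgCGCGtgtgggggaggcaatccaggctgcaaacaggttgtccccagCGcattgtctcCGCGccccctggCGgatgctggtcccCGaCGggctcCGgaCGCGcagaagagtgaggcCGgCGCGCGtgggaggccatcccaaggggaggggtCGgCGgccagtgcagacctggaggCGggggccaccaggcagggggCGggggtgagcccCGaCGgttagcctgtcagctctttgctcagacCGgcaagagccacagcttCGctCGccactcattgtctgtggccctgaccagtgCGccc
Dlx2 (chr2:71546705-71547004, - strand): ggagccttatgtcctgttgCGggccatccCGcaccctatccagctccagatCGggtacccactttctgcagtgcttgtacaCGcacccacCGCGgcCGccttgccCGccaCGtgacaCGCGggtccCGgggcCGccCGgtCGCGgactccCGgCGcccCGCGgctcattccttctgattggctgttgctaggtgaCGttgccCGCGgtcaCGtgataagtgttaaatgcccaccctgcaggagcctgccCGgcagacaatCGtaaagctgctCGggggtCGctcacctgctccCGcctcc
Galr2 (chr11:116280689-116280988, + strand): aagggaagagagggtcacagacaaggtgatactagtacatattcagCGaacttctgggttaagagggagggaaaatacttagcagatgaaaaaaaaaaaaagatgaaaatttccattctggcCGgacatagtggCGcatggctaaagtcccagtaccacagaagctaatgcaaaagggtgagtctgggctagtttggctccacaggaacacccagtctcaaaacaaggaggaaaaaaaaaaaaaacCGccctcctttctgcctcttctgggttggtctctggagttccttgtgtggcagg
Phb2 (chr6:124712039-124712338, + strand): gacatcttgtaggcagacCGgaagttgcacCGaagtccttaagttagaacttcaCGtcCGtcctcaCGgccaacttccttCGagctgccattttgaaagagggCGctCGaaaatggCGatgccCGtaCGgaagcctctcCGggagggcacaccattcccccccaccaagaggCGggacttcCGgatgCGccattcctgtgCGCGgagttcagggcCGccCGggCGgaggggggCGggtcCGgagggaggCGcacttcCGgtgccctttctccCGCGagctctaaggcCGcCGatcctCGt
Dlx2 had 4.70 and 8.71 CPM over its interval in the Ezh2-deleted libraries, against 28.4 and 39.5 CPM in the controls, and Galr2 had 5.76 and 5.93 CPM in the Ezh2-deleted libraries, against 24.3 and 36.4 CPM in the controls. Phb2 had 3.58 and 4.13 CPM in the Ezh2-deleted libraries, against 1.17 and 0.483 CPM in the controls. The CG-rich Dlx2 and Phb2 thus changed in opposite directions, and the CG-poor Galr2 changed as Dlx2 did. All 4 genes were chosen by their densities or changes, so they support nothing further on CG content. A comparison of CG content over all called intervals was not made, because only 68.7% of tested intervals matched a promoter in the table.

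Genes that hold back the cell cycle were split. The neighbouring Cdkn2a and Cdkn2b, which encode the p16, p19 and p15 inhibitors of proliferation, lost the mark and gained RNA. Cdkn2a (chr4:89274471-89294653) had 28.2 and 36.4 CPM in the Ezh2-deleted libraries, against 115 and 138 CPM in the controls (log2 change -1.97, SE 0.18, adjusted p = 5.46e-05), and 46.0 ± 9.76 RNA CPM in Ezh2-deleted cells against 1.22 ± 0.16 in controls (SD, n = 3 each). Cdkn2b had 6.03 and 9.52 CPM in the Ezh2-deleted libraries, against 32.8 and 37.0 CPM in the controls (log2 change -2.18, SE 0.27, adjusted p = 0.000161). Cdkn1a and Cdkn1c also fell. Cdkn1c, with 3.44 and 4.67 CPM in the Ezh2-deleted libraries, against 12.9 and 14.1 CPM in the controls, showed no called change in RNA (log2 change 0.23, adjusted p = 0.51). Cdkn1b and Cdkn2d rose on library totals (log2 changes 1.11 and 1.94), and Cdkn2c was not called.

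Polycomb's own genes were mostly unmarked. Of 11 tested PRC2 subunit genes none fell and 10 rose on library totals, and none was called on the scale of expressed genes; their median density over expressed genes was 1.01 and 1.05 in the Ezh2-deleted libraries, against 1.04 and 1.02 in the controls. Of 19 tested PRC1 genes 3 fell, Bmi1, Cbx7 and Cbx8 (15.8%), and 6 rose (31.6%), near the shares over all intervals (20.6% and 32.2%). On the scale of expressed genes 5 fell and none rose, against 42.6% and 2.89% of all intervals. Bmi1, a core PRC1 subunit, had 8.34 and 11.3 CPM in the Ezh2-deleted libraries, against 25.7 and 25.2 CPM in the controls (log2 change -1.38, SE 0.25, adjusted p = 0.0015), and its RNA was 229 ± 11.9 CPM in Ezh2-deleted cells and 72.8 ± 3.48 CPM in controls (SD, n = 3 each; adjusted p = 3.1e-09). Cbx8, a reader of the mark, had 3.38 and 4.94 CPM in the Ezh2-deleted libraries, against 9.26 and 14.2 CPM in the controls (log2 change -1.51, SE 0.31, adjusted p = 0.00298), with 7.46 ± 0.13 RNA CPM in Ezh2-deleted cells and 6.66 ± 0.25 in controls (SD, n = 3 each; log2 change 0.12, adjusted p = 0.338).

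At T helper genes the counts of falls stood near the share over all intervals in some lists and above it in others, and single genes differed widely. Eomes, a T-box factor of cytotoxic and memory T cells, had 7.28 and 7.72 CPM in the Ezh2-deleted libraries, against 23.4 and 41.9 CPM in the controls (log2 change -2.12, SE 0.30, adjusted p = 0.000407). Tbx21, the T-box master regulator of Th1 cells, had 16.0 and 17.1 CPM in the Ezh2-deleted libraries, against 9.08 and 7.32 CPM in the controls (log2 change 1.01, SE 0.25, adjusted p = 0.00673 on library totals; 0.28, adjusted p = 0.36, on the scale of expressed genes). Of 17 tested Th1 genes 3 fell (17.6%) and 4 rose (23.5%) on library totals, against 20.6% and 32.2% of all intervals. On the scale of expressed genes 8 fell and 1 rose, against 42.6% and 2.89% of all intervals. Ifng, the Th1 cytokine, had 3.38 and 4.22 CPM in the Ezh2-deleted libraries, against 4.85 and 2.82 CPM in the controls (log2 change -0.01, SE 0.34, adjusted p = 0.977). The groups overlapped in CPM, at 35 to 54 reads a library. Over expressed genes Ifng stood at 0.785 and 1.03 in the Ezh2-deleted libraries, against 1.98 and 1.64 in the controls, without overlap. On that scale its log2 change was -0.72 (adjusted p = 0.0742, edgeR).

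Of 18 tested cytotoxic genes 4 fell, Gzma, Gzmf, Gzmk and Prf1 (22.2%, near the 20.6% of all intervals), and 3 rose (16.7%, against 32.2%). Against 42.6% and 2.89% of all intervals, 11 of these genes fell and none rose on the scale of expressed genes. Their median density over expressed genes was 1.12 and 1.27 in the Ezh2-deleted libraries, against 2.26 and 3.59 in the controls. Gzma, a granzyme, had 7.95 and 7.37 CPM in the Ezh2-deleted libraries, against 12.5 and 12.1 CPM in the controls (log2 change -0.68, SE 0.25, adjusted p = 0.0352), and its RNA was 318 ± 69.3 CPM in Ezh2-deleted cells and 1.15 ± 0.24 CPM in controls (SD, n = 3 each). Of the 16 cytotoxic genes tested in RNA, 15 rose, against 25.4% of all genes tested. The filter on low counts itself favours rises here. Gzmk, with 0 RNA CPM in every control, entered the test through Ezh2-deleted libraries alone. Il10, the regulatory cytokine, had 7.48 and 6.92 CPM in the Ezh2-deleted libraries, against 13.7 and 17.6 CPM in the controls (log2 change -1.12, SE 0.26, adjusted p = 0.0048). Prdm1, which encodes the repressor Blimp-1, had 99.8 and 102 CPM in the Ezh2-deleted libraries, against 231 and 241 CPM in the controls (log2 change -1.23, SE 0.12, adjusted p = 6.99e-05).

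Over all intervals 20.6% fell and 32.2% rose on library totals, and 42.6% and 2.89% did on the scale of expressed genes. Of 13 tested Th2 genes 4 fell (30.8%) and 2 rose on library totals, and 8 fell and none rose on the scale of expressed genes. Among the falls was Il4, with 16.4 and 15.8 CPM in the Ezh2-deleted libraries, against 34.5 and 46.3 CPM in the controls (log2 change -1.33, SE 0.23, adjusted p = 0.0011). Gata3, the Th2 master regulator, had 21.3 and 20.7 CPM in the Ezh2-deleted libraries, against 15.1 and 18.9 CPM in the controls (log2 change 0.30, adjusted p = 0.296; -0.46, adjusted p = 0.13, on the scale of expressed genes). Of 12 tested Th17 and aryl hydrocarbon receptor genes 6 fell and 1 rose on library totals, and 10 fell and none rose on the scale of expressed genes. Their largest fall was at Cyp1b1, a target of that receptor, with 11.1 and 12.4 CPM in the Ezh2-deleted libraries, against 42.8 and 49.1 CPM in the controls (log2 change -1.97, SE 0.22, adjusted p = 0.000114). Of 18 tested regulatory T cell genes 3 fell (16.7%) and 5 rose (27.8%) on library totals, near the shares over all intervals (20.6% and 32.2%), and 11 fell and none rose on the scale of expressed genes; Foxp3 had no reads because other intervals overlap it. Ctla4, an inhibitory receptor, had 30.6 and 30.4 CPM in the Ezh2-deleted libraries, against 22.9 and 18.8 CPM in the controls (log2 change 0.55, SE 0.21, adjusted p = 0.0477), and on the scale of expressed genes its log2 change was -0.18 (adjusted p = 0.526).

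Genes of active T cells and of general upkeep rose on library totals and were mostly not called on the scale of expressed genes. Of 23 tested housekeeping genes 19 rose on the first scale and 5 on the second, and of 15 T cell identity genes 12 and 3. Of 77 tested ribosomal protein genes 51 rose on the first scale and 4 on the second. Over all intervals 32.2% rose on the first scale and 2.89% on the second. Ap2s1, an adaptor subunit of clathrin-coated vesicles, had 10.4 and 10.1 CPM in the Ezh2-deleted libraries, against 2.61 and 2.17 CPM in the controls (log2 change 2.1, SE 0.29, adjusted p = 0.00031; 1.37, adjusted p = 0.000246, on the scale of expressed genes).

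Gene families of other tissues held different shares of falls. Of 133 tested voltage-gated channel genes 83 fell (62.4%) and 9 rose (6.77%) on library totals, against 20.6% and 32.2% of all intervals. On the scale of expressed genes 114 fell and none rose, against 42.6% and 2.89% of all intervals. Scn8a, a neuronal sodium channel, had 208 and 226 CPM in the Ezh2-deleted libraries, against 487 CPM in both controls (log2 change -1.17, SE 0.11, adjusted p = 5.32e-05). Of 93 tested keratin genes 24 fell (25.8%) and 2 rose on library totals, and 71 fell and none rose on the scale of expressed genes. Of 1078 tested olfactory receptor genes 53 fell (4.92%) and 16 rose, and of 316 vomeronasal receptor genes 8 fell and 7 rose; on the scale of expressed genes 239 and 65 fell. Most olfactory receptor intervals are too short for a density, and the 424 with one had a median over expressed genes of 1.32 and 1.54 in the Ezh2-deleted libraries, against 2.42 and 3.36 in the controls. At the level of medians, the olfactory receptor genes thus had less mark than Hox genes in the controls.

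**Figure D4:**
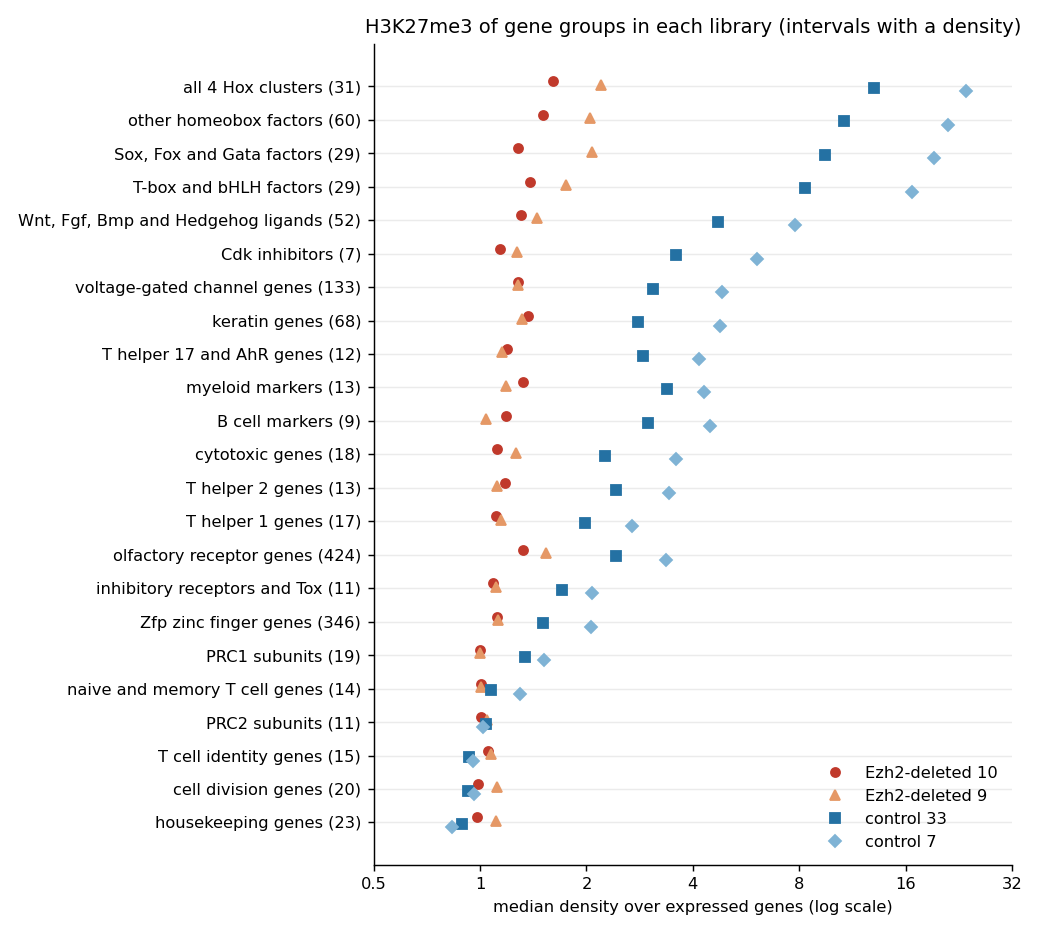
Median H3K27me3 density over expressed genes (x axis, log scale) of 23 gene groups in each library, with the number of intervals that have a density in brackets. The Ezh2-deleted libraries lie between 0.980 and 2.20 in all groups shown, and the controls between 0.834 and 23.7.

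Markers of other cell types were among the intervals that fell: 5 of 9 tested B cell markers fell, 6 of 14 myeloid, 3 of 6 erythroid and 1 of 8 CD8 T and NK cell markers, and none rose, against 20.6% and 32.2% of all intervals. On the scale of expressed genes 8, 12, 5 and 6 of them fell, against 42.6% of all intervals. Pax5, the B cell commitment factor, had 220 and 230 CPM in the Ezh2-deleted libraries, against 432 and 562 CPM in the controls (log2 change -1.14, SE 0.13, adjusted p = 0.000138). The counts of DNA cannot show which cells were in the ChIP.

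Falls ran in blocks. Of 4202 called falls that were followed by another tested interval on the chromosome, 36.4% were followed by a further fall, against 20.6% of all intervals. There were 61 runs of at least 5 consecutive falls, and they held 375 intervals. The longest, 14 intervals over 269 kb (chr11:96099326-96368256), held the Hoxb cluster, and runs of 12, 9 and 8 held the Hoxa, Hoxd and Hoxc clusters. Others held signalling genes from Cyp27a1 over Wnt6 and Wnt10a to Ihh (10 intervals on chromosome 1), the Cd300 receptor genes (12 intervals on chromosome 11) and Ifnb1 with several Ifna genes (8 intervals on chromosome 4).

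The 2 Ezh2-deleted libraries were not alike where most mark had been. At 27 of 31 Hox genes and 111 of 118 developmental factors with a density, Ezh2-deleted 9 was higher over expressed genes than Ezh2-deleted 10, against 51.2% of all 15908 intervals. Among the 11796 intervals ranked by the ratio of Ezh2-deleted 9 to 10, Tlx2, a homeobox gene, had the largest. It stood at 1.73 in Ezh2-deleted 10 and 5.03 in Ezh2-deleted 9, against 11.9 and 32.3 in the controls. The next were Neurog2, Pou3f1 and Sp5, all developmental factors. The source of the remaining reads was not tested.

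A few intervals were dense in all 4 libraries. The 10 ranked as densest in Ezh2-deleted cells were Chl1, Pisd-ps1, Pisd-ps2, Mroh2a, Znf41-ps, Hjurp, Zfp600, Smo, Sp140 and Rex2. Over expressed genes Pisd-ps1 stood at 14.7 and 13.6 in the Ezh2-deleted libraries, against 15.1 and 21.2 in the controls. Without an input library, how much of these densities is the mark was not tested. Chl1, a neural adhesion gene, had 10178 and 11563 CPM in the Ezh2-deleted libraries, against 7509 and 6256 CPM in the controls, the highest density of any interval in each. Over expressed genes it stood at 51.6 and 61.2 in the Ezh2-deleted libraries, against 66.8 and 79.4 in the controls. Smo, a receptor component of Hedgehog signalling, stood at 4.07 and 3.73 in the Ezh2-deleted libraries, against 6.23 and 13.8 in the controls. Its log2 change was -0.25 (adjusted p = 0.326) on library totals and -1.02 (adjusted p = 0.00868) on the scale of expressed genes.

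Genes that lost the mark mostly gave too little RNA for a test, and among those that could be tested RNA was higher in more cases than lower. The 6 Th0 RNA libraries, tested with edgeR, gave 3122 genes higher in Ezh2-deleted cells (25.4% of 12284 tested) and 3328 lower (27.1%). Of the 4205 intervals that fell, 1156 were of genes tested in RNA and 3049 were not. Of those 1156, 666 had higher RNA (57.6%) and 84 lower RNA (7.27%), against 25.7% and 27.6% of all 11495 genes tested in both. Of those 1156, 216 had fewer than 10 RNA reads in every control (18.7%, against 2.63% of all 11495). They entered the RNA test through Ezh2-deleted libraries, 210 of them with higher RNA. The filter on low counts itself thus favours higher RNA in this set, and the shares of the 1156 support nothing further. Of the other 940 genes, 456 had higher RNA (48.5%) and 84 lower RNA (8.94%). Over all 11193 genes outside the low-count group these shares were 23.8% and 28.3%. The 666 were 15.8% of the intervals that fell, near the 14.5% of all tested intervals and the 15.9% of those that rose. Genes not tested in RNA are counted in these 3 shares, and their part differed. RNA was tested for 27.5% of the intervals that fell, 96.2% of those that rose and 56.4% of all tested intervals. The 666 were also 22.6% of the 2950 genes with higher RNA, against 10.1% of all 11495 genes with a lower mark on library totals. A higher mark on that scale was called at 35.3% of the 2950, against 55.0% of all 11495. Of 507 genes with RNA at least 4-fold higher, 316 (62.3%) had fallen in the mark on library totals and 463 (91.3%) on the scale of expressed genes. Genes with few RNA reads in controls could enter the 507 through Ezh2-deleted libraries alone, so these shares support nothing further either. Of 60 genes with RNA at least 4-fold lower, 16 (26.7%) had fallen in the mark on library totals and 43 (71.7%) on the scale of expressed genes, and over all 11495 genes these shares were 10.1% and 24.5%. Fitted with the 6 iTreg libraries, the RNA test called 1110 genes higher and 437 lower, and 31.1% of the genes with a fall were then higher in RNA and 1.8% lower.

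Nedd4, a ubiquitin ligase, had 87.5 and 86.4 CPM of the mark in the Ezh2-deleted libraries, against 149 and 162 CPM in the controls (log2 change -0.84, SE 0.13, adjusted p = 0.00072). Its RNA was 143, 152 and 132 CPM in Ezh2-deleted cells, against 9.64, 10.5 and 12.3 CPM in controls (log2 change 3.67, SE 0.08, adjusted p = 2.76e-09). Gcnt2, a glycosyltransferase, had 114 and 112 CPM of the mark in the Ezh2-deleted libraries, against 245 and 268 CPM in the controls, and 17.6, 18.9 and 16.2 RNA CPM in Ezh2-deleted cells, against 0.407, 0.222 and 0.115 in controls. Neither gene's libraries overlapped in either assay. Eomes RNA was 569, 726 and 555 CPM in Ezh2-deleted cells, against 27.9, 24.7 and 33.5 CPM in controls (log2 change 4.38, SE 0.17, adjusted p = 2.24e-05).

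RNA also rose at Ifng, whose mark was called on neither scale (log2 change -0.01 on library totals and -0.72 on expressed genes). Ifng RNA was 30.4, 19.7 and 13.5 CPM in Ezh2-deleted cells, against 0.285, 0.408 and 0.84 CPM in controls (log2 change 5.30, SE 0.53, adjusted p = 0.00101). Ctla4 RNA fell to 13.7, 13.4 and 16.8 CPM in Ezh2-deleted cells, against 343, 276 and 271 CPM in controls (log2 change -4.38, SE 0.15, adjusted p = 3.49e-06). Of 6322 genes with a higher mark on library totals, 1042 had higher RNA (16.5%) and 2194 lower RNA (34.7%), and on the scale of expressed genes these shares were 14.3% and 34.1% of 586. The 6 B cell markers summed to 165.1, 69.9 and 81.4 RNA CPM in Ezh2-deleted cells, against 25.5, 23.2 and 41.5 CPM in controls, and of 10 listed B cell markers 7 rose in RNA. The 8 markers of T cells summed to 1569 to 1888 CPM in Ezh2-deleted cells, against 3022 to 3180 CPM in controls, with no overlap. The part of these differences in the RNA results was not tested. Myeloid markers summed to at most 0.706 CPM in any library, with S100a8 and S100a9 at 0.

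**Figure D5:**
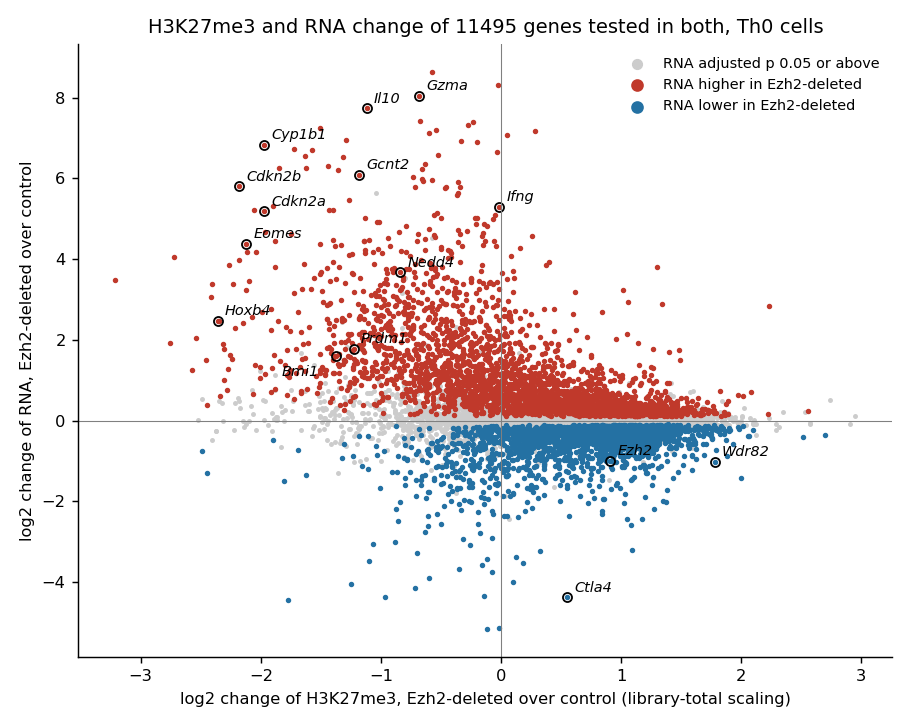
Log2 change of RNA (y axis) against log2 change of H3K27me3 on library totals (x axis), both Ezh2-deleted over control, for 11495 genes tested in both; each dot is 1 gene, coloured by its RNA call, with named genes circled. Genes with large rises in RNA lie mostly left of 0, where the mark was lower, and Ctla4 lies at the lower right.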

How the data were processed

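Read counts per gene interval (ChIP) and per gene (RNA) were used as deposited; per the submitters' processing notes the authors used Trimmomatic 0.30, Bowtie2 2.1.0, TopHat2 2.0.6, featureCounts 1.4.2 and the mm10 build. Per the file headers a ChIP count covers a whole gene interval, and intervals wholly inside others held 0 reads, so signal at promoters is diluted by gene length. The members and gene lists were chosen with earlier results of these data known, and no list was tested.

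Counts were tested with edgeR 4.0.16 (R 4.3.3; robust quasi-likelihood test, minimum count 10, two-sided, Benjamini-Hochberg adjustment over all intervals or genes, threshold 0.05), ChIP scaled by library totals or by reads over expressed genes, RNA by TMM. DESeq2 1.42.0 was an alternative. In simulated ChIP counts 45% of intervals changed 2-fold and 98% of those changed 4-fold were recovered, with 32 false calls among 175. In simulated RNA counts 88.9% and 96.0% were, with 12 false among 195. The ChIP simulation changed 100 intervals 2-fold and 100 intervals 4-fold and left 20054 unchanged. It therefore does not cover changes as widespread as those called in the data, or their effect on library totals. All pairs of libraries differed beyond sampling noise. One read was worth 0.0662 to 0.0899 CPM in the ChIP libraries, and reads without molecular identifiers give counting error only.

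Named genes were a fixed set, the 10 largest falls and rises without overlap and with a mean of at least 50 reads per library in the higher genotype, up to 3 members a list with the smallest p, the 10 densest intervals of each genotype and the 5 smallest RNA p-values in each opposed pair of calls. Predicted genes and genes of X and Y were left out of the rankings. Hoxa3, Hoxb3, Fgf14, Foxf2, Cdkn1a, Cdkn1b, Cdkn2c, Cdkn2d, Cbx7, Lag3, Gzmf, Prf1, Tlx2, Neurog2, Pou3f1, Sp5 and the runs were singled out after their values were seen.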

Additional observations from a re-analysis of the deposited data

How the results depend on the processing

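Scaling and the Ezh2-deleted pair set most of what changed. On library totals the test gave 4205 falls and 6570 rises; scaled by expressed genes it gave 8674 and 589, against a 1.5-fold change 1864 and 1831, and at an adjusted p below 0.01 the rises were 3556. Leaving out 1 library gave 0 to 5091 falls and 0 to 7557 rises, the 0 counts without either Ezh2-deleted library. DESeq2 gave 1050 and 1007 falls and 25 and 109 rises without Ezh2-deleted 10 and 9, and 2999 rises without control 7. On expressed genes the rises were 37 and 32 without Ezh2-deleted 10 and 9, and falls and rises were 10991 and 2310 without control 33, 8242 and 690 without control 7. These omissions on expressed genes and with DESeq2 were chosen after seeing the data, and the lone library of a genotype is assumed there to vary like the others. The other alternatives stayed within 1.5 times of both counts. The median log2 change of the densest 10% of intervals was -1.46, and -1.28 when chosen in control 7, -1.92 and -2.42 for the densest 5% and 1%, -1.74 with TMM, -1.67 with median-of-ratios scaling, -2.35 on expressed genes and -1.48 without X and Y. With all 12 RNA libraries 1110 genes were higher and 437 lower. The share of genes with a fall whose RNA was higher was 57.6%, and 49.3% on expressed genes, 31.1% with 12 RNA libraries and 51.5% to 56.6% with 1 library left out; the share with lower RNA was 7.27%, and 12.1%, 1.8% and 6.13% to 11.02%. Of genes with a rise, 16.5% were higher in RNA, and 14.9% with TMM, 14.3% on expressed genes, 2.35% with 12 RNA libraries and 14.2% to 17.5% with 1 left out; 34.7% were lower, and 36.0% with TMM, 3.55% with 12 RNA libraries and 28.6% to 35.4% with 1 left out. Among named intervals called on at least 1 scale, the log2 change turned negative on expressed genes at Ctla4 (-0.18), Chl1 (-0.066), Pisd-ps1 (-0.046), Pisd-ps2 (-0.21), Znf41-ps (-0.70), Rex2 (-0.53) and Rabgap1l (-0.27), and it did so at 7 more called on neither scale, Gata3 (-0.46) among them. Of 167 named intervals, none was called by edgeR when either Ezh2-deleted library was left out. On the scale of expressed genes, 33 of the named intervals lost the call and 5 gained it. No paired analysis was possible because the 4 ChIP libraries carry 4 different numbers, and without an Ezh2-deleted library no interval was left to compare with RNA. Where no value shows it, the cause was not tested.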

Other observations

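Other gene groups lay between the extremes. Of 80 tested ionotropic receptor genes, the ligand-gated channels of synapses, 31 fell and 6 rose, and on the scale of expressed genes 55 fell and none rose; over all intervals 20.6% fell and 32.2% rose on library totals, and 42.6% and 2.89% on the scale of expressed genes. Of 358 tested Slc transporter genes 94 fell (26.3%) and 99 rose (27.7%) on library totals, and 201 fell and 3 rose on the scale of expressed genes. Of 346 tested Zfp zinc finger genes 34 fell (9.83%) and 114 rose (32.9%) on library totals, and 95 fell and 4 rose on the scale of expressed genes, with a median density over expressed genes of 1.11 and 1.12 in the Ezh2-deleted libraries, against 1.51 and 2.06 in the controls. Of 34 tested protocadherin genes, whose clusters give neurons their surface identity, 3 fell and 3 rose on library totals, and 15 fell and none rose on the scale of expressed genes. Of 20 tested cell division genes 19 rose on library totals and 6 on the scale of expressed genes. On chromosome 4 a run of 8 consecutive falls held Ifnb1 and Ifna genes, the type I interferons, with a median log2 change of -1.18.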
